A study of Homo sapiens with 8 samples.

Results

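SOX9 and MYC each lie in a gene-poor stretch of chromosome, and the sites of accessible chromatin in both stretches are described here. Membership was set by position, in intervals proposed with earlier results of these data known. A listed site belongs to the SOX9 desert if its centre falls between 68.2 and 71.1 Mb of chromosome 17, on hg19. It belongs to the MYC desert if its centre falls between 127.5 and 130.5 Mb of chromosome 8. There were 36 of 14191 listed sites, with 12 in the SOX9 desert and 24 in the MYC desert. All distances run from the centre of a site to the gene position in that rule, 70.12 Mb for SOX9 and 128.75 Mb for MYC. These positions are rounded to 10 kb, so a distance under 5 kb gives no side.

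Accessible chromatin was profiled by ATAC-seq, which marks open DNA by the insertions of a transposase, in the human embryonic stem cell line H9, with 8 samples in 4 groups of 2. Wild-type cells were sampled at day 0 and at day 7 of differentiation to surface ectoderm, the simple epithelium from which epidermis forms, in 1 uM retinoic acid and 5 ng/ml BMP4. Cells of genotype p63-/- were sampled at day 7 of the same treatment, and a TetO:Tp63+/- line was sampled at day 0 after 2 days in 2 ug/ml doxycycline. The labels do not say whether either modified line is a single clone or whether replicates were separate cultures. The data used are 2 lists of sites drawn up by the authors. One holds 8154 sites named as opened by the morphogens, attached to wild-type cells at day 0 and day 7, and is called the opened list below. The other holds 6037 sites that by its name the morphogens open and p63 closes, attached to wild-type and p63-/- cells at day 7, and is called the p63-closed list. By these names the morphogens open the sites of both lists. An opened site below therefore means only a member of the opened list. Neither list was attached to the TetO:Tp63+/- line. The lists hold positions and no reading for any sample, so depth is unknown, replicate error cannot be given, and no test between groups was possible.

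SOX9 encodes a transcription factor of the HMG-box family that acts in cartilage, testis, neural crest and hair follicle stem cells. Its expression is driven in part by enhancers far from the gene, and chromosome breaks in the region before the gene are a known cause of campomelic dysplasia and Pierre Robin sequence. MYC encodes a transcription factor of the basic helix-loop-helix leucine zipper family that promotes growth and division, in basal keratinocytes among many other cells. It too has distant enhancers on both sides, active in different tissues, and the long non-coding RNA gene PVT1 follows it. TP63 encodes p63, a p53 family transcription factor needed for stratified epithelia. Both genes are read towards higher coordinates, so lower coordinates lie before the gene (upstream) and higher ones after it (downstream).

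Genes around SOX9 and MYC were read from their order in the RefSeq table of GRCh38.p14, and no coordinate of that build was used. Between KCNJ2, a potassium channel gene, and SOX9 the table lists 15 genes, of which 0 code for protein and 10 are long non-coding RNA genes. From SOX9 to SLC39A11, a zinc transporter gene, it lists 7, with 0 coding for protein. After MYC and before GSDMC, a gasdermin gene, there are 21 entries, again with 0 coding for protein, 11 long non-coding RNA genes and 6 miRNA genes. POU5F1B, a retrogene of the pluripotency gene POU5F1, precedes MYC with 2 long non-coding RNA genes between them, and a further 13 entries, 0 of them coding for protein, separate it from LRATD2. Where the limits of the intervals fall in this order, and which of these genes a site falls in, was not determined, since no annotation of hg19 was used.

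The SOX9 desert held almost only p63-closed sites, while the MYC desert held both kinds in near equal number. In the SOX9 desert 11 of 12 sites were p63-closed, or 91.7% (exact 95% binomial interval 61.5 to 99.8%). In the MYC desert 13 of 24 were, or 54.2% (32.8 to 74.4%). Over the whole series 42.5% of listed sites were p63-closed, with 45.8% on chromosome 17 and 36.1% on chromosome 8. The interval of the SOX9 share lies above both the series value and that of chromosome 17, and the interval of the MYC share spans both the series and the chromosome value. This is a description and no test, as the deserts were proposed with results of these data known. These intervals cover counting error only and treat sites as independent, which neighbours are not: 61.5% of neighbouring listed sites in the series came from the same list. The share for independent sites in the same mix of lists was not computed.

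**Figure D1:**
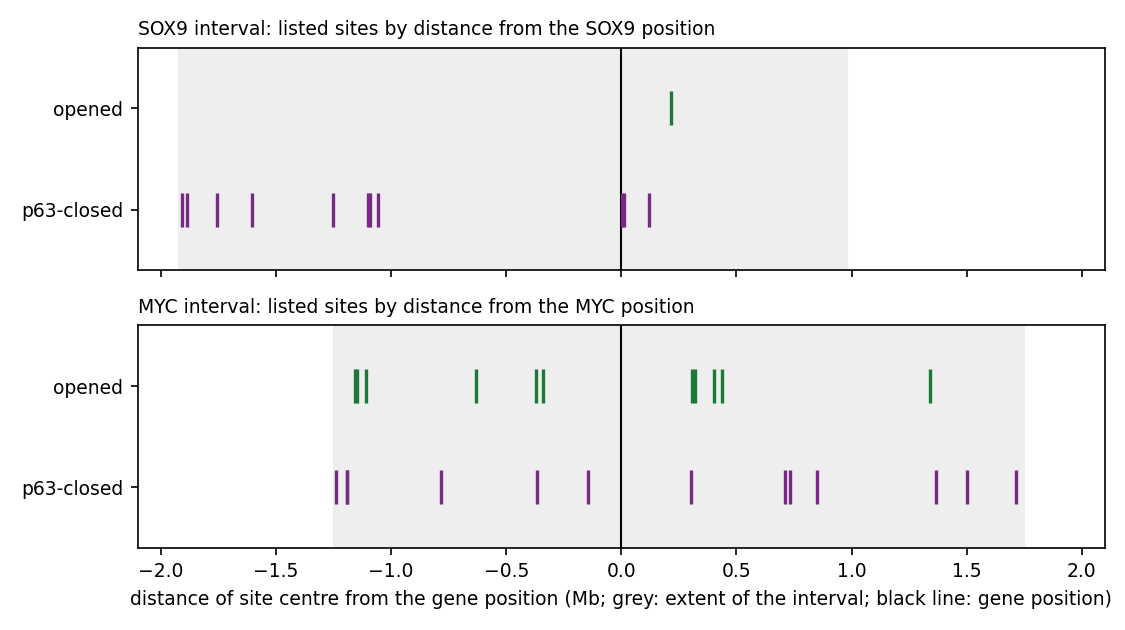
Position of each listed site in the SOX9 desert (top) and the MYC desert (bottom) as distance in Mb from the gene position, with opened sites on the upper line of each panel and p63-closed sites on the lower. Grey marks the interval and black the gene. The SOX9 panel has 1 opened site and a stretch of 1.06 Mb before the gene with no site, whereas in the MYC panel both lists occur on both sides.

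Set against stretches of the same length, the deserts differed from the median window in different respects. SOX9 had an ordinary number of sites: 12 in 2.9 Mb, where overlapping windows of that length moved in steps of 100 kb had a median of 14 (quartiles 10 and 18), and 64.4% of 28622 windows held as many or more. Its 11 p63-closed sites stood against a window median of 5, and 16.3% of windows held as many or more. Its 1 opened site stood against a median of 7, and 5.57% of windows held 1 or 0. That share includes 741 windows with 0 listed sites of either list. Of the 18444 windows with at least 12 sites, 123 (0.667%) had as high a p63-closed share. The SOX9 desert has the lowest count of that set, and high shares come more easily at low counts. The MYC desert was dense, at 24 sites in 3 Mb against a median of 14 (quartiles 10 and 19), and 9.70% of 28599 windows held as many or more. Its 13 p63-closed sites were reached by 10.7% of windows and its 11 opened sites by 28.1%. Of the 2775 windows with at least 24 sites, 39.3% had as high a p63-closed share as the MYC desert. Per Mb this came to 4.14 listed sites in the SOX9 desert, 8 in the MYC desert and 4.85 over the series. These ranks describe the lists and are no test, as the windows overlap and the deserts were proposed with results known.

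**Figure D2:**
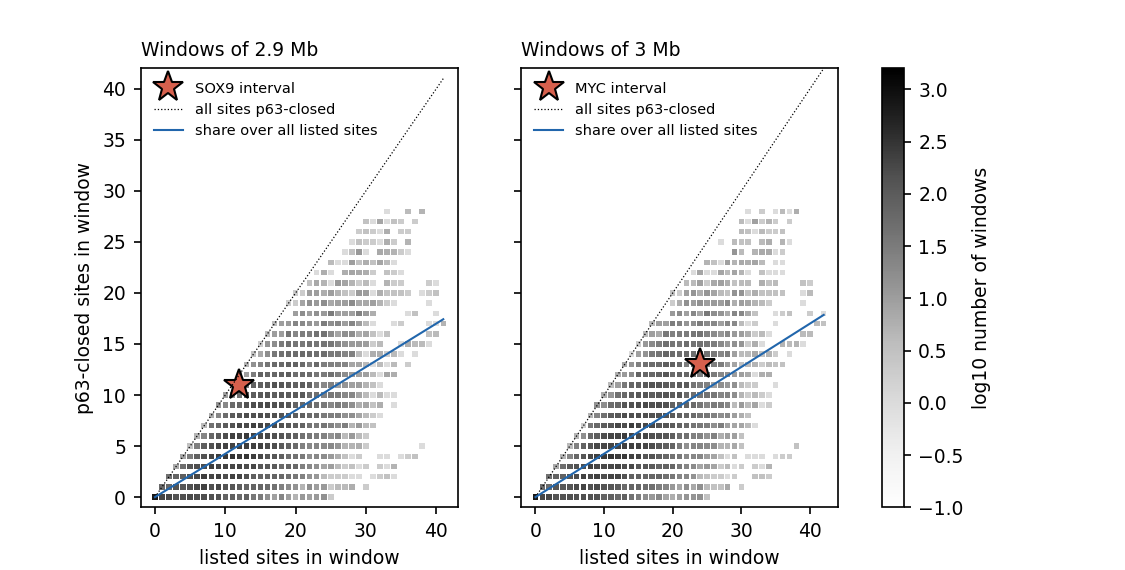
Number of p63-closed sites against the number of all listed sites in windows of the same length as the SOX9 desert (left, 2.9 Mb) and the MYC desert (right, 3 Mb), with darker grey for more windows on a log10 scale. The star for SOX9 (11 of 12) lies next to the dotted line on which every site is p63-closed, and the star for MYC (13 of 24) lies to the right of most windows and a little above the blue line of the series share, 42.5%.

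Of the listed sites that could be given a side, all 8 before SOX9 were p63-closed, and each was more than 1 Mb from the gene. In order towards the gene, the first lay at 1908 kb (68211446 to 68212525, 1080 bp wide), 12.0 kb inside the limit of the interval. The next, at 1885 kb (68233616 to 68236125), was the widest site of either desert, at 2510 bp. Single sites followed at 1755, 1603 and 1254 kb from SOX9, with widths of 1856, 1816 and 1138 bp. Gaps of 130, 152 and 349 kb separated them from the site before, against a median gap of 96.4 kb over the series. The first site and the next were 22.9 kb apart.

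Nearer to SOX9, though still 1.06 Mb or more before it, 3 p63-closed sites formed the only group of 3 in the desert, where neighbouring centres within 50 kb are joined. They ran from 69018794 to 69020727, from 69028281 to 69029989 and from 69063611 to 69064747, at 1100, 1091 and 1056 kb from the gene, and the first was the second widest site of the desert, at 1934 bp. Their centres spanned 44.4 kb. Between the last of them and SOX9 came the longest gap between members, 1059 kb from centre to centre. The numbering of site names, which appears to count one catalogue of candidate regions along the chromosome, passes over 734 unlisted entries there. What an unlisted entry is was not stated in the labels. Over the series 2.37% of neighbouring listed sites were more than 1000 kb apart.

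At SOX9 itself listed sites resumed. A p63-closed site ran from 70122565 to 70123859, with its centre 3.21 kb above the gene position, too close for a side to be given at the rounding of that position. A second, from 70129445 to 70130432, lay 9.94 kb after the position and was the narrowest of the desert, at 988 bp. These 2 were also the closest pair of the desert, 6.73 kb apart. The next p63-closed site followed at 122 kb (70241208 to 70242727, 1520 bp).

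The only site of the opened list in the SOX9 desert lay 215 kb after the gene, from 70334525 to 70336038, and was 1514 bp wide. It was also the last member. The next listed site, likewise opened, was 1275 kb further on (71609152 to 71610659), beyond the limit by 510 kb, with 904 unlisted catalogue entries between them. At the other end, the nearest site outside was an opened one from 68133058 to 68135253, 65.8 kb below the limit. Between these opened sites the 11 p63-closed sites therefore formed one unbroken run. Of 2729 such runs in the series, 28 (1.03%) were as long or longer, the median run was 1 and the longest was 21. This run is not a result apart from the share of 11 of 12, since the 1 opened member was the last.

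In the MYC desert the sites were split evenly by side, with 12 before and 12 after the gene. There were 6 opened and 6 p63-closed sites before MYC and 5 and 7 after it. Since the interval reaches 1.25 Mb before and 1.75 Mb after the gene, this is 9.6 and 6.86 sites per Mb. For SOX9 the comparison of sides depended on the rounded gene position. With the site at 3.21 kb counted after the gene there were 4.17 sites per Mb over the 1.92 Mb before and 4.08 over the 0.98 Mb after. Counted before the gene, it gave 4.69 and 3.06 per Mb. A gene position 10 kb higher, a larger shift than the 5 kb that rounding allows, gave 5.18 and 2.06. Both lists recurred along the MYC desert, where 13 of 23 neighbouring pairs (56.5%) came from the same list. The values were 10 of 11 (90.9%) in the SOX9 desert and 61.5% over the series. With only 1 opened site in the SOX9 desert, and that one last, its value follows from the list counts. The series value is not matched to the mix of lists in either desert.

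No listed site lay close to MYC. The nearest was a p63-closed site 144 kb before it, from 128605449 to 128606435 (987 bp), and the nearest after it was a p63-closed site at 301 kb, from 129050418 to 129051413 (996 bp). They were 445 kb apart, and the numbering passes over 336 unlisted entries between them. The nearest opened sites were farther out, 339 kb before MYC (128410236 to 128411754, 1519 bp) and 305 kb after it (129054685 to 129056059, 1375 bp). By distance, 0 of the 11 sites of the opened list lay within 250 kb of the gene. Of the rest, 6 lay between 250 and 500 kb, 1 between 500 and 1000 kb and 4 beyond. The 13 p63-closed sites fell 1, 2, 4 and 6 into the same ranges. The median distance was 439 kb for opened and 848 kb for p63-closed sites of the MYC desert, and 1100 kb for the p63-closed sites of the SOX9 desert.

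Neighbouring sites were closer together in the MYC desert, but its density (8 sites per Mb, against 4.85 over the series) shortens gaps by itself. There 12 of 23 neighbouring centres (52.2%) were within 50 kb, against 4 of 11 (36.4%) in the SOX9 desert and 34.4% in the series. Joining neighbours within 50 kb gave 6 groups of 2 or more sites in the MYC desert, holding 18 of its 24 sites, and 3 groups in the SOX9 desert, holding 7 of 12. The largest MYC group had 6 sites, 3 p63-closed followed by 3 opened, from 127508588 to 127641167 at 1109 to 1240 kb before the gene. When neighbours were joined at 20 kb, the largest MYC group had 3 sites. The group of 6 contained the closest pair of either desert, p63-closed sites from 127556844 to 127558182 and from 127559074 to 127560149, which have consecutive catalogue numbers and 891 bp between their ends. Its first site, 9.66 kb inside the limit, was the farthest site before MYC and 2141 bp wide. Another p63-closed site (127488809 to 127490781) lay 10.2 kb outside, so this group continues past the limit.

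Sites of different lists stood side by side at 2 places in the MYC desert and at 0 in the SOX9 desert, counting neighbours within 10 kb. The first was 371 and 366 kb before MYC, where an opened site (128377867 to 128379612) and a p63-closed site (128382915 to 128384495) were 4.97 kb apart, with 1 unlisted entry between them. The second was the tightest MYC group of 3, with centres spanning 18.7 kb after the gene. There the p63-closed site at 301 kb and the opened one at 305 kb were 4.46 kb apart, and a further opened site followed at 320 kb (129068771 to 129070377). Such pairs made up 3.44% of neighbouring pairs over the series (488 of 14168), against 2 of 23 in the MYC desert and 0 of 11 in the SOX9 desert. These values depend on site density and on the mix of lists, which were not matched. The SOX9 desert had only 1 opened site, so few mixed pairs were possible there. The lists share no base at any of these places, nor anywhere else: 0 p63-closed sites of the series overlapped an opened site.

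Further out after MYC, sites of both lists recurred. Opened sites lay at 404 and 439 kb, and the latter, from 129187727 to 129189963, was the widest site of the MYC desert at 2237 bp. Next came 3 p63-closed sites at 710, 734 and 848 kb, 890 to 1333 bp wide. After the longest empty stretch of this desert, 492 kb from centre to centre with 294 unlisted entries, an opened site at 1340 kb (130088796 to 130090743) was followed by p63-closed sites at 1366, 1499 and 1713 kb. The last of these, from 130462695 to 130463728, was the farthest member after the gene, and the next listed site, also p63-closed, lay 95.3 kb past the limit (130594604 to 130595963). On the other side a p63-closed site stood alone at 784 kb before MYC and an opened site at 632 kb. The latter, from 128116668 to 128118901, was the second widest at 2234 bp. The farthest opened site before the gene was at 1158 kb (127590778 to 127592881).

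Widths are the only other property that the lists give. In the SOX9 desert they had a median of 1517 bp (quartiles 1138 and 1826), near the 1569 bp of all listed sites. Members of the MYC desert had a median of 1357 bp (quartiles 1034 and 1844). The narrower sites there were mostly p63-closed ones, which had a median of 1329 bp (range 890 to 2141), and 4 of 13 exceeded the median of the whole p63-closed list, 1531 bp. The 11 opened sites of the MYC desert had a median of 1607 bp (range 737 to 2237), close to the 1597 bp of the opened list. The range of the p63-closed sites in the SOX9 desert, 988 to 2510 bp, overlapped that in the MYC desert almost fully. Together the sites covered 18.5 kb (0.638%) of the SOX9 desert and 35.4 kb (1.18%) of the MYC desert.

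**Figure D3:**
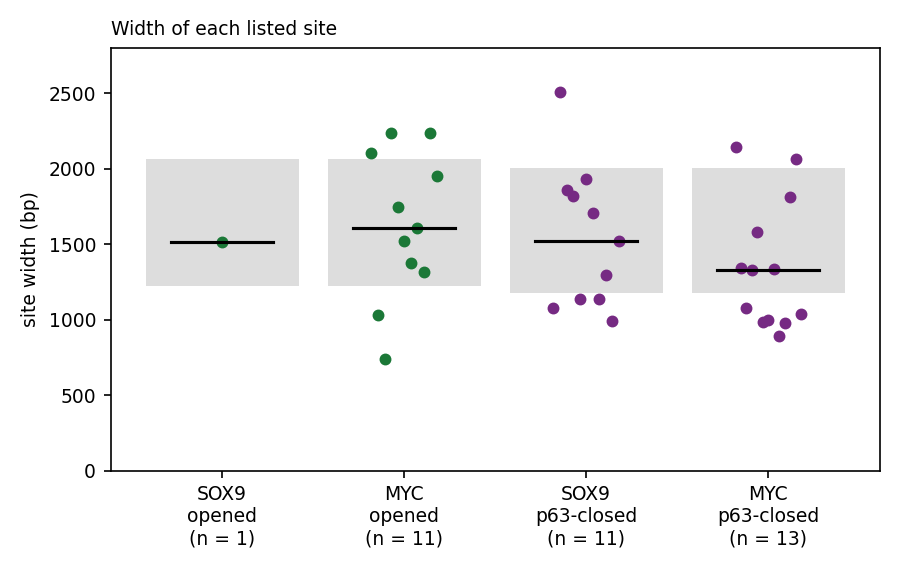
Width in bp of each listed site, by desert and list, with 1 point per site and a black line at the median. Grey boxes span the quartiles of the whole list. Of the 13 MYC p63-closed sites, 6 lie below their box, 5 in it and 2 above it, and of the 11 SOX9 p63-closed sites 4 lie below, 6 in it and 1 above.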

How the data were processed

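The authors deposited 2 lists of sites as BED files without a header, with 4 columns for chromosome, start, end and a numbered name. Per the submitters' processing notes the tools included Bowtie2, MACS2, DESeq2, FastQC and SAMtools (no versions), and the build was hg19, also named there as GRCh37. What each tool did, at which threshold, and whether replicates were pooled is not given in the sources used here, so an absent site is not shown to be closed or unchanged. The deposited lists hold no counts or other values per sample.

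From the lists, positions were made 1-based, sites were assigned by their centre, and distances were taken from the gene position in the rule. Windows ran in steps of 100 kb from the first to the last listed site on every chromosome. Catalogue entries are differences of the numbers in site names, with 6 breaks in the numbering over the series and 0 in the deserts. Shares carry exact (Clopper-Pearson) 95% binomial intervals. No p-value was computed, since sites in a stretch are not independent and no sample has values. The sites printed with coordinates are the nearest and farthest on each side by list, the 2 widest, the tightest group of 3 or more, the closest pair, and those beside the longest gaps and the limits; the other members of the SOX9 desert were added after their values were seen. The counting steps were tested on simulated data. All 15 gene names looked up matched the RefSeq table. The members, intervals and rules were chosen with earlier results of these data known. Analyses used Python 3.11.15, numpy 2.4.6, pandas 2.3.3, scipy 1.17.1 and matplotlib 3.10.9.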

Additional observations from a re-analysis of the deposited data

How the results depend on the processing

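No paired analysis was possible because no sample has values of its own in these lists, which also prevents leaving out replicates. Of 60 alternative values, 59 stayed within 1.5 times the reported count or level, or within its interval or spread, and 1 moved: opened sites in the SOX9 desert went from 1 to 2 when the interval was extended by 250 kb at both ends, which took in 1 more. That extension gave 17 sites and a p63-closed share of 88.2% for SOX9, and 35 sites and 54.3% for MYC. Counting sites of 1 list within 50 kb once gave shares of 87.5% (7 of 8) and 62.5% (10 of 16). Several settings, such as any base in the interval, could hardly differ. A gene position 10 kb higher, a larger shift than the 5 kb that rounding allows, would put 10 rather than 8 sites before SOX9. The densities before and after SOX9 would then be 5.18 and 2.06 sites per Mb. Joining at 20 kb left 4 rather than 6 MYC groups, the largest with 3 rather than 6 sites. Sites carry no score, so a stricter threshold was not run, and the motif search was not run because no hg19 genome was used.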

Other observations

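The opened list is not in one genomic order: it runs through the 23 chromosomes 3 times, in passes of 4549, 2706 and 899 sites with median widths of 1469, 1770 and 1710 bp. The sources used here do not say what the passes stand for. The 11 opened sites of the MYC desert fell 7, 2 and 2 into these passes in that order, and the single opened site of the SOX9 desert was in the second. The passes hold 55.8%, 33.2% and 11.0% of the list.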
